A study of Mus musculus with 6 samples.

Results

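The genes described here are the 10 that encode the TSC complex, its target Rheb with the paralog Rhebl1, and the mTOR kinase with its main partners. They were chosen by name, as Tsc1, Tsc2, Tbc1d7, Rheb, Rhebl1, Mtor, Rptor, Rictor, Mlst8 and Deptor. They are 10 of 22651 genes in the mRNA-sequencing tables, and all 10 passed the filter on low counts. Telencephalon from 6 mice at postnatal day 0 was sequenced, 1 library per mouse. The 3 WT mice were TSC1 flox/flox;Emx1 +/+ and the 3 TSC1-KO mice were TSC1 flox/flox;Emx1-cre/+, so both groups carried the floxed allele. The WT mice were littermates without Cre, and no agent is named for either group. Cre came from the Emx1 locus, which is active in progenitors of the dorsal telencephalon. Cells of the telencephalon outside that lineage therefore kept an intact Tsc1 in the TSC1-KO tissue. In bulk tissue of this kind, fewer cells of a type and less RNA per cell cannot be told apart.

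TSC1 (hamartin), TSC2 (tuberin) and TBC1D7 form a complex in which TSC2 is the GTPase-activating protein and TSC1 the scaffold that stabilises it. The complex switches off the small GTPase Rheb, and GTP-bound Rheb activates mTOR complex 1 (mTORC1) at the lysosome. mTOR and MLST8 are in both mTOR complexes, RAPTOR (Rptor) defines mTORC1, RICTOR defines mTORC2, and DEPTOR binds and inhibits the kinase. Loss of TSC1 or TSC2 causes tuberous sclerosis, in which cortical malformations and epilepsy are common. The comparison asks whether loss of Tsc1 from the dorsal telencephalon was accompanied by a change in the mRNA of its partners or of either mTOR complex.

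Tsc1 was the gene of the group with the lowest mRNA level in TSC1-KO relative to WT, at 63.5% (95% interval 48.3 to 83.5%, n = 3 per group). None of the 10 genes passed an adjusted p of 0.05 in edgeR, Tsc1 included (adjusted p = 0.09998), and 1.52% of all genes tested passed. Tsc2 was 113.1% of WT (interval 101.3 to 126.2%). Its TSC1-KO libraries were all above WT, as for 12.3% of all genes tested, and those of Tsc1 all below, as for 10.3%. In the other 8 genes the libraries of the genotypes overlapped.

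The deletion itself is at Tsc1 exons 17 and 18, which Cre removes. They are shown here because reads from a Tsc1 transcript without them would still be counted for the gene, so that the Tsc1 level is only a partial check of the genotype. Exons are numbered from 1 along the GENCODE transcript matched to NM_022887. This GENCODE transcript has 23 exons on the + strand of GRCm38 (the assembly of mm10), and exons 17 and 18 lie within its coding sequence. Exon 17 is at chr2:28678952-28679118 and exon 18 at chr2:28680023-28680205. The sequences are those of the reference transcript, 5′ to 3′.
Exon 17: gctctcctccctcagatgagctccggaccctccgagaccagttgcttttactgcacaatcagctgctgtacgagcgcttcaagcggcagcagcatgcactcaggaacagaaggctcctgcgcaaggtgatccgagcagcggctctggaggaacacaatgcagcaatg
Exon 18: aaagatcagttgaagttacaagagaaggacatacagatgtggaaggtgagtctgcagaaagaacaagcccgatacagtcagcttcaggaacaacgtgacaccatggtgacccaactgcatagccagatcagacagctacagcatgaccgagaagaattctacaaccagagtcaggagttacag
Exons 17 and 18 hold 350 bases, which is 4.56% of the 7674 bases of the GENCODE transcript. The counted Tsc1 transcript had 7697 bases. Division of 350 by 3 leaves a remainder of 2. Joining exon 16 to exon 19 therefore shifted the reading frame in the reference sequence. The joined stretch, with the last 30 bases of exon 16 and the first 62 of exon 19, is shown with the first stop codon in the shifted frame in capitals.
Joined exons 16 and 19: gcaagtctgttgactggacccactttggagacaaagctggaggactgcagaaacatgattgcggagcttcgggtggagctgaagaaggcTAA
The frame ended after 696 codons in place of 1160, 20 codons past the join. The stop was in exon 19, 522 bases before the last exon junction. The gene tables give no count by exon, so the share of Tsc1 mRNA that lacked exons 17 and 18 was not measured here.

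Library totals were 14119365 to 17772865 expected counts. Dorsal telencephalic markers (9 genes tested) summed to 1516 to 1728 TPM in WT and 1597 to 2022 in TSC1-KO and were thus abundant in every library. None of the 9 was called by edgeR, with 2 at an unadjusted p below 0.05 (18.0% of all genes tested). Emx1, whose locus drives Cre, was at 43.2 ± 3.86 TPM in WT and 37.9 ± 2.53 in TSC1-KO (SD, n = 3). Markers of ventral telencephalon, which is outside the Emx1 lineage, summed to 502 to 591 TPM in WT and 277 to 381 in TSC1-KO, and 5 of 11 were called lower by edgeR, against 0.659% of all genes tested. In that list 10 were apart and lower (10.3% of all genes) and 10 had an unadjusted p below 0.05 (18.0%). Drd2, named after its values were seen, had the lowest log2 fold change at −2.13 but was not called (edgeR adjusted p = 0.0683). Of the 5 called, Slc32a1 (log2 fold change −1.19), Gad2 (−1.03) and Gad1 (−0.83) differed most. With 1 library left out these calls held without TSC1-KO replicate 3 and, for Gad2, without WT replicate 1. With any of the remaining libraries left out the edgeR adjusted p was above 0.05, at up to 0.201 for Slc32a1 and Gad1 and 0.167 for Gad2, and with upper quartile normalization it was 0.0502 for Slc32a1. Choroid plexus markers summed to 1164 to 2446 TPM in WT and 30.4 to 857 in TSC1-KO. All 5 were lower in every TSC1-KO library (10.3% of all genes were apart and lower). Although 5 had an unadjusted p below 0.05 (18.0% of all genes), edgeR called 0 of them. Erythroid markers summed to 1694 to 5566 TPM in WT and 1291 to 1783 in TSC1-KO. Of 6 markers of astrocytes and radial glia, Gfap was called higher (1.09), but not without WT replicate 2 (edgeR adjusted p = 0.0562) or TSC1-KO replicate 1 (0.0620). In that list 4 markers had a lower mean in TSC1-KO, Gja1 (−0.69) and Slc1a3 (−0.31) furthest, and the median log2 fold change was −0.10. Of 5 endothelial markers all had a lower mean in TSC1-KO, with a median of −0.49 and 0 called by edgeR. In that list 4 had an unadjusted p below 0.05 (18.0% of all genes) and 2 were apart and lower (10.3%). The summed ranges of the markers of microglia, endothelium, meninges and of astrocytes and radial glia overlapped between the genotypes. The sums for the oligodendrocyte lineage were 199 to 255 TPM in WT and 181 to 198 in TSC1-KO. By gene, the mean was lower in TSC1-KO for 5 of 5 meningeal, 4 of 6 microglial and 5 of 6 oligodendrocyte markers. In the same order 1, 2 and 2 were apart and lower (10.3% of all genes), and edgeR called 0. The part of tissue makeup in the values below was not tested.

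Tsc1, the targeted gene (chr2:28641228-28691167, + strand, GRCm38), was at 50.2, 32.0 and 28.4 TPM in WT replicates 1, 2 and 3. It was at 27.1, 21.7 and 22.4 TPM in TSC1-KO replicates 1, 2 and 3. Every TSC1-KO library was below every WT library, but the gap between the lowest WT and the highest TSC1-KO library was 1.33 TPM, and WT replicate 1 was far above the other two. The means were 36.9 ± 11.7 and 23.7 ± 2.92 TPM (SD, n = 3), so that TSC1-KO tissue retained 64.4% of the WT mean, or 78.6% when WT replicate 1 was left out. The values rested on 1157 to 2230 counts in a WT library and 852 to 1116 in a TSC1-KO library. The edgeR log2 fold change was −0.66 ± 0.175 (SE), with an adjusted p of 0.09998. Without WT replicate 1 it was −0.40 (edgeR adjusted p = 0.0659). With DESeq2 the same counts gave −0.65 and an adjusted p of 0.00319, so whether Tsc1 passed the threshold depended on the tool.

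**Figure D1:**
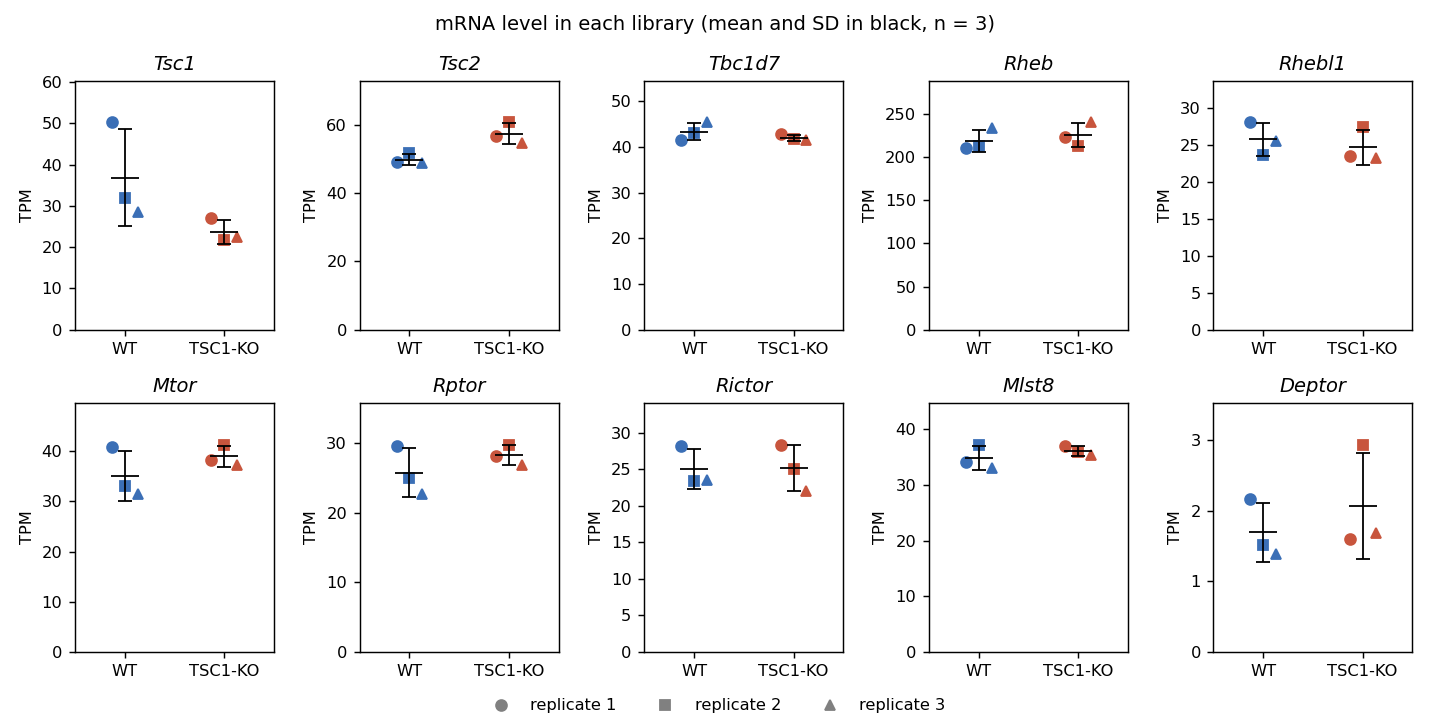
mRNA level (TPM) of each of the 10 genes in the 3 WT and 3 TSC1-KO libraries, with marker shapes for replicates 1 to 3 and the mean and SD in black; each axis starts at 0. The genotypes are apart only for Tsc1 (lower in TSC1-KO) and Tsc2 (higher), and WT replicate 1 has the highest Tsc1 level at 50.2 TPM.

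Tsc2, the catalytic subunit, was at 49.0, 51.6 and 48.6 TPM in WT, in replicate order here and below, and at 56.7, 60.6 and 54.7 TPM in TSC1-KO. All 3 TSC1-KO libraries were above all 3 WT libraries, and the mean was 115% of WT. The edgeR log2 fold change was 0.18 ± 0.0704 (adjusted p = 0.226), which did not pass. With a trend over transcript length modelled for each library it was 0.11 (adjusted p = 0.519, edgeR). Tbc1d7, the smallest subunit, was at 41.6, 43.0 and 45.3 TPM in WT and 42.8, 41.6 and 41.5 TPM in TSC1-KO. Its libraries overlapped, and its interval ran from 80.8 to 110.6% of WT (edgeR adjusted p = 0.709).

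Within the mRNA of the TSC complex, taken as the sum of the TPM of its 3 genes, Tsc1 made up 35.7, 25.3 and 23.2% in WT and 21.4, 17.5 and 18.9% in TSC1-KO. Tsc2 made up 34.8, 40.8 and 39.7% in WT and 44.8, 48.9 and 46.2% in TSC1-KO. The shares of both genes were apart between the genotypes. They are parts of one sum, so a lower Tsc1 level raises the share of Tsc2 without any change in Tsc2. The share of Tbc1d7 ran from 29.5 to 37.0% in WT and from 33.6 to 34.9% in TSC1-KO and overlapped.

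Rheb, the GTPase that the complex switches off, was the most abundant mRNA of the group. It was at 210.9, 212.8 and 234.0 TPM in WT and at 224.0, 213.4 and 240.3 TPM in TSC1-KO. The libraries overlapped over most of their range, with a log2 fold change of 0.01 ± 0.0836 and an interval of 88.4 to 114.8% of WT (edgeR adjusted p = 0.964). Rhebl1, its paralog, was at 28.0, 23.6 and 25.5 TPM in WT and 23.4, 27.3 and 23.2 TPM in TSC1-KO. Its libraries also overlapped, with an interval of 76.5 to 114.8% of WT (edgeR adjusted p = 0.744).

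Mtor, the kinase of both complexes, was at 40.8, 33.1 and 31.5 TPM in WT and 38.3, 41.3 and 37.3 TPM in TSC1-KO. WT replicate 1 lay among the TSC1-KO libraries while WT replicates 2 and 3 lay below them. The log2 fold change was 0.13 ± 0.0899 with an interval of 94.9 to 125.7% of WT (edgeR adjusted p = 0.493). It was 0.22 without WT replicate 1, and 0.07 to 0.22 over all 6 libraries left out in turn. Mlst8, the other shared subunit, was at 34.1, 37.3 and 33.1 TPM in WT and 37.0, 35.8 and 35.3 TPM in TSC1-KO. Its libraries overlapped, with an interval of 89.4 to 115.2% of WT (edgeR adjusted p = 0.915).

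Rptor, the defining subunit of mTORC1, was at 29.6, 25.1 and 22.7 TPM in WT and 28.2, 29.8 and 26.9 TPM in TSC1-KO. Its libraries overlapped through WT replicate 1, as those of Mtor did, and its interval was 93.5 to 124.5% of WT (edgeR adjusted p = 0.571). Its log2 fold change of 0.11 was 0.19 without WT replicate 1, and ran from 0.05 to 0.19 with 1 library left out. Rictor, the defining subunit of mTORC2, was at 28.2, 23.4 and 23.5 TPM in WT and 28.4, 25.1 and 22.04 TPM in TSC1-KO. The 2 ranges were nearly the same, and the interval was 84.8 to 114.9% of WT (edgeR adjusted p = 0.945).

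Deptor, the inhibitor of the kinase, was the least abundant of the 10, at 2.17, 1.52 and 1.39 TPM in WT and 1.60, 2.94 and 1.68 TPM in TSC1-KO. TSC1-KO replicate 2 was the highest library, and the other 2 lay within the WT range. Its values rested on 24 to 49 counts in a library, and the interval of 74.9 to 202.9% of WT was the widest of the 10 (edgeR adjusted p = 0.656). A doubling of Deptor could not be told from no change at this depth.

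Of the 10 genes, 0 were called by edgeR, against 1.52% of the 13969 genes tested (0.859% higher in TSC1-KO and 0.659% lower). At an unadjusted p below 0.05, 2 of 10 stood out (Tsc1 and Tsc2), against 18.0% of all genes. DESeq2 called 1 of 10 (Tsc1) against 4.64% of its 13698 genes, and limma called 0, with 2 at an unadjusted p below 0.05 in each. Libraries of the genotypes were apart with TSC1-KO higher for 1 of 10 genes (12.3% of all genes) and with TSC1-KO lower for 1 of 10 (10.3%). The shares of the 10 genes were thus near those of all genes, and with 10 genes such shares are coarse. The median absolute log2 fold change was 0.10 over the 10 and 0.13 over all genes tested. Among the 9 genes other than Tsc1, 6 had a higher mean in TSC1-KO and 3 a lower one.

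**Figure D2:**
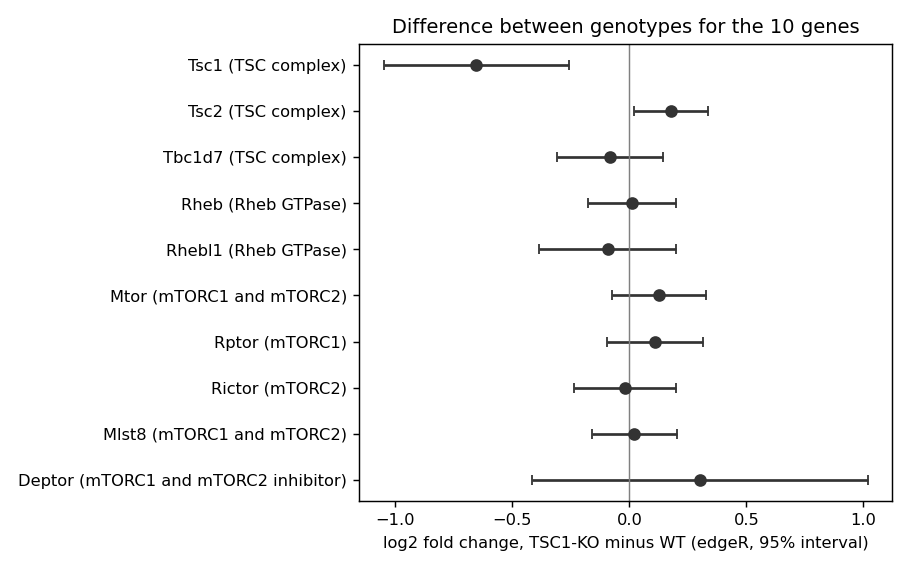
edgeR log2 fold change (TSC1-KO minus WT) of each of the 10 genes with its 95% interval, n = 3 per group, grouped by role. The intervals of Tsc1 (−1.05 to −0.26) and Tsc2 (0.02 to 0.34) do not include 0 before adjustment, and that of Deptor is the widest.

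Ranked by mean TPM, the WT order was Rheb (219.2), Tsc2 (49.7), Tbc1d7 (43.3), Tsc1 (36.9), Mtor (35.1), Mlst8 (34.8), Rptor (25.8), Rhebl1 (25.7), Rictor (25.05) and Deptor (1.69). The 13844 expressed genes (TPM of 1 or more in 3 or more libraries) were ranked by mean TPM over both genotypes. In that ranking Rheb was at percentile 94.1 and Deptor at percentile 6.08, and the other 8 lay between percentiles 48.0 and 69.1. Rheb stood above every other gene in every WT library. Tsc2 was apart from Tbc1d7, but in WT replicate 1 it lay below Tsc1 (49.0 and 50.2 TPM). The libraries of Tbc1d7 overlapped those of Tsc1, those of Tsc1 overlapped Mtor and those of Mtor overlapped Mlst8, so the order among these was not resolved. The same held among Rptor, Rhebl1 and Rictor. In TSC1-KO the order was Rheb, Tsc2, Tbc1d7, Mtor, Mlst8, Rptor, Rictor, Rhebl1, Tsc1 and Deptor, and Tsc1 was in place 9 in place of 4. There the libraries of Rptor, Rictor, Rhebl1 and Tsc1 overlapped from each to the next.

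Ratios within a library do not depend on the scaling between libraries. The Tsc1 to Tsc2 ratio of TPM was 1.02, 0.620 and 0.585 in WT and 0.478, 0.359 and 0.410 in TSC1-KO, a mean log2 difference of −0.80 with the genotypes apart. The Tbc1d7 to Tsc2 ratio was 0.848, 0.833 and 0.932 in WT and 0.755, 0.687 and 0.757 in TSC1-KO, also apart (−0.25). Tbc1d7 has a short transcript and Tsc2 a long one, and with the length trend of each library as an offset the edgeR log2 fold changes were −0.01 for Tbc1d7 and 0.11 for Tsc2, in place of −0.08 and 0.18. The Tsc1 to Tsc2 and Tbc1d7 to Tsc2 ratios gave p = 0.1 by a two-sided exact permutation test, the smallest p that 3 against 3 allows, and an adjusted p of 0.3 over the 6 ratios tested. The libraries overlapped for the other 4 ratios. The Rptor to Rictor ratio, which sets the defining subunits of mTORC1 and mTORC2 against each other, was 1.05, 1.07 and 0.965 in WT and 0.993, 1.19 and 1.22 in TSC1-KO (exact p = 0.3, adjusted 0.6). The Rheb to Rhebl1 ratio was 7.53 to 9.17 in WT and 7.81 to 10.4 in TSC1-KO (exact p = 0.5, adjusted 0.6). The log2 differences were 0.10 for Deptor to Mtor (exact p = 0.9) and −0.10 for Mlst8 to Mtor (exact p = 0.5).

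**Figure D3:**
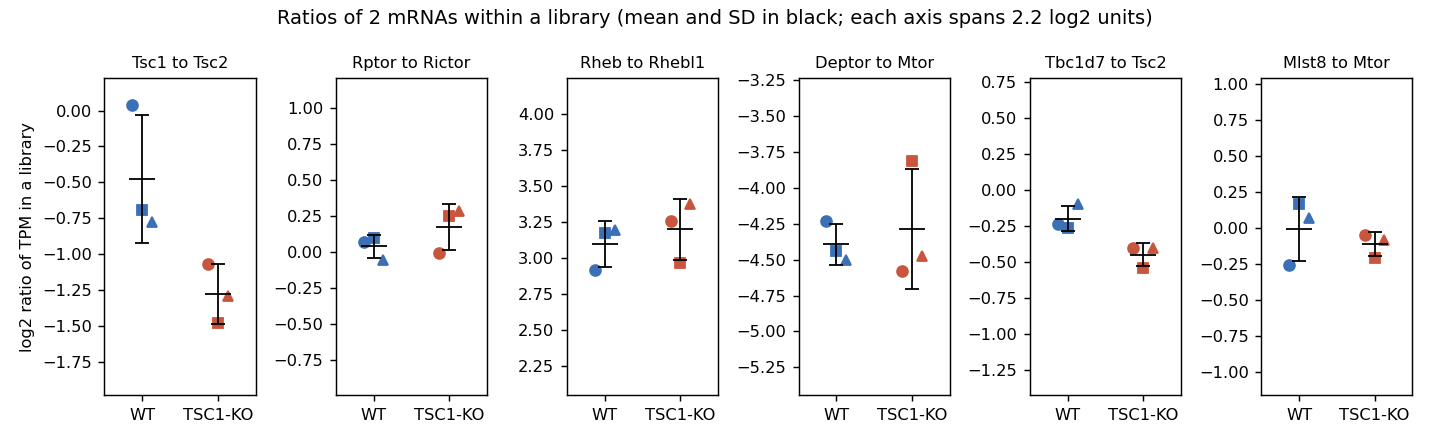
log2 ratio of the TPM of 2 genes within each library for the 6 pairs, with the mean and SD in black (n = 3) and axes of equal span. The Tsc1 to Tsc2 and Tbc1d7 to Tsc2 ratios are lower in every TSC1-KO library than in any WT library, and the other 4 overlap.

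Tsc1, Tsc2, Mtor, Rptor and Rictor have transcripts of 6 kb and over, and libraries differed in their values for long transcripts in general. Over the 1496 tested genes with transcripts of 6 kb and over, the median log2 CPM relative to each gene's mean was 0.06, −0.09 and −0.11 in the WT libraries, in replicate order. It was 0.09, 0.09 and −0.02 in the TSC1-KO libraries. WT replicate 1 was thus above the other WT libraries for long transcripts as a class. In that class 67.8% of genes had a higher mean in TSC1-KO, Tsc2, Mtor and Rptor among them. Mtor followed the class, at 0.11, −0.14 and −0.17 in WT and 0.01, 0.16 and 0.03 in TSC1-KO. Tsc1 was at 0.76, 0.16 and 0.02 in WT and −0.15, −0.42 and −0.36 in TSC1-KO. In TSC1-KO replicates 1 and 2 the class median was above 0 and Tsc1 below it, and in TSC1-KO replicate 3 both were below 0. The bases that RSEM subtracted from transcript length to obtain effective length, which depend on the fragment lengths, were 45.8 to 49.7 in WT and 55.1 to 57.6 in TSC1-KO. Their part in these values was not tested.

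With the length trend of each library as an offset in edgeR, chosen after the data were seen, 1.63% of genes were called in all. Tsc1 was then among them at −0.73 (adjusted p = 0.0395). The log2 fold changes of Mtor and Rptor fell to 0.03 and 0.04, from 0.13 and 0.11, and that of Rictor was −0.13 in place of −0.02 (edgeR adjusted p = 0.353).

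**Figure D4:**
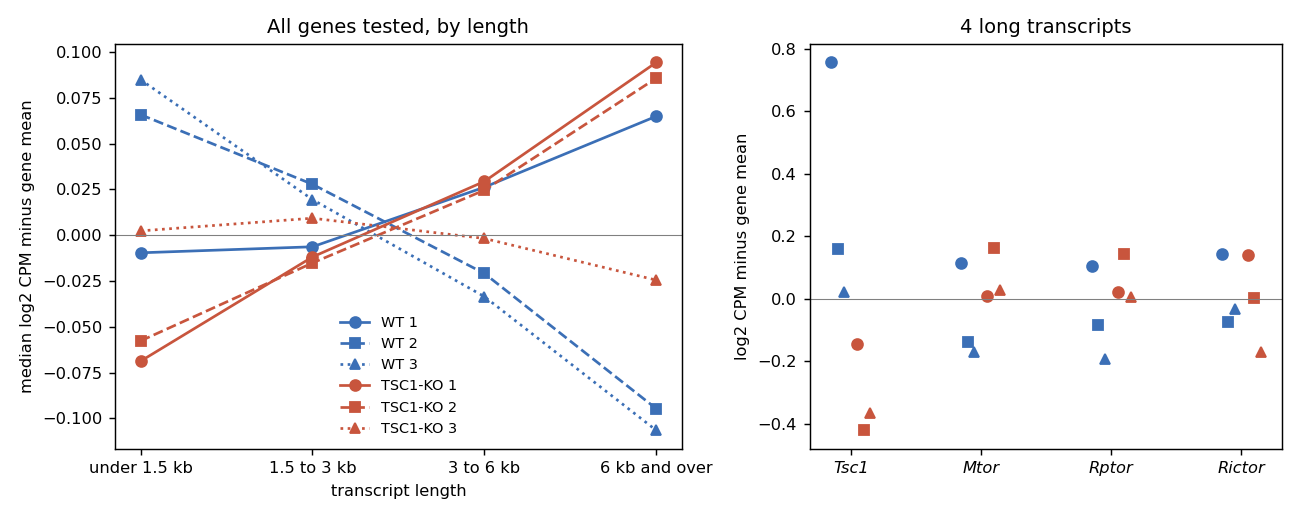
Left, the median log2 CPM relative to each gene's mean over all genes tested, in 4 classes of transcript length, 1 line per library; right, the same quantity for Tsc1, Mtor, Rptor and Rictor. WT replicate 1 lies above WT replicates 2 and 3 in the longest class, and Tsc1 runs from 0.76 in WT replicate 1 to −0.42 in TSC1-KO replicate 2.

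The tables hold more than 1 transcript for Tsc2, Tbc1d7, Mlst8 and Deptor, and for these the length weighted by transcript abundance reads the isoform mix. It differed between the genotypes by −3.49 bases for Tsc2, −0.29 for Tbc1d7, −0.19 for Mlst8 and 87.6 for Deptor. None of the 4 passed (exact permutation p = 0.4 to 1.0, adjusted p = 1.0). The Deptor length was 3300 bases in 4 libraries, 2845 in WT replicate 2 and 3108 in TSC1-KO replicate 3, at its 24 to 49 counts.

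Tsc2 (chr17:24595816-24632630) and Mlst8 (chr17:24473551-24479078) lie near each other on the − strand of chromosome 17, and Rictor, Deptor and Rhebl1 are on chromosome 15. The library kit does not keep strand, so reads from exons that 2 genes share could not be assigned by strand. Of the exonic bases of Mlst8, 22.5% overlapped Bricd5 on the opposite strand. The overlap was 17.99% of Rhebl1 with Dhh on the same strand, 7.20% of Tsc2 with Pkd1 and 3.41% of Deptor with Gm9920, both on the opposite strand. These shares are of the exonic bases of all annotated transcripts, 3035 for Rhebl1, where the counted Rhebl1 transcript had 1213. Overlap within the counted transcripts was not measured, nor was the number of reads in shared bases. The values of these 4 genes are uncertain for such reads, although their expected counts were whole numbers in every library. Only genes present in the mRNA-sequencing tables were examined for overlap, and with these the other 6 shared no exonic base.

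Other genes of the pathway were taken as 4 lists, chosen with earlier results of these data known. Their shares here and below are thus descriptive. The lists held 48 genes, of which 46 were tested. Of these, 1 was called higher and 0 lower by edgeR, where 1.52% of all genes tested were called. At an unadjusted p below 0.05 there were 11 of 46, against 18.0% of all genes. All TSC1-KO libraries were above all WT libraries for 12 of 46 (12.3% of all genes) and below for 0 (10.3%). The mean was higher in TSC1-KO for 35 and lower for 11, with a median log2 fold change of 0.10 against −0.0027 over all genes tested. Over all genes the share with a higher mean was 32.7% for transcripts under 1.5 kb and 67.8% for those of 6 kb and over. Transcript length was not taken into account in the counts of the lists. DESeq2 called 9 of them, against 4.64% of the genes it tested, and limma 2, all higher. The share that limma called over all genes is not reported here.

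The called gene was Rragd, a Rag GTPase that recruits mTORC1 to the lysosome when amino acids are present. It was at 56.7, 54.4 and 50.7 TPM in WT and 78.5, 83.7 and 75.6 TPM in TSC1-KO. The genotypes were well apart, with a log2 fold change of 0.53 ± 0.0675 (edgeR adjusted p = 0.0104). With 1 library left out the log2 fold change stayed between 0.48 and 0.55, while the edgeR adjusted p was 0.0656 without WT replicate 2, 0.0711 without WT replicate 3 and 0.0519 without TSC1-KO replicate 2. The call was thus lost without any 1 of these 3 libraries, in fits with 1 mouse fewer.

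In the Rag GTPase and Ragulator list (13 genes), 5 had an unadjusted p below 0.05 (18.0% of all genes tested) and 5 were apart and higher (12.3%). The summed level was 954 to 970 TPM in WT and 1033 to 1064 in TSC1-KO. The 5 genes apart were Rragd and 4 others, Flcn, Fnip1, Fnip2 and Rragc, which were named after their values were seen. Flcn (folliculin) and its partners Fnip1 and Fnip2 form the GTPase-activating complex for RagC and RagD. Flcn was at 26.9 to 30.9 TPM in WT and 32.6 to 43.5 in TSC1-KO, with a log2 fold change of 0.42 (edgeR adjusted p = 0.0874). Fnip1 had 0.35 (edgeR adjusted p = 0.0752), Fnip2 had 0.30 (edgeR adjusted p = 0.0754) and Rragc had 0.22 (edgeR adjusted p = 0.156). None of these 4 passed the edgeR threshold, and DESeq2 called the first 3. With the length trend of each library as an offset, the edgeR log2 fold changes were 0.40 for Flcn, 0.28 for Fnip1, 0.22 for Fnip2 and 0.22 for Rragc.

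Of the 19 upstream kinases and kinase subunits tested, 0 were called, 5 had an unadjusted p below 0.05 (18.0% of all genes) and 5 were apart and higher (12.3%). Pik3r1, a regulatory subunit of PI3K, had the largest fold change of that list at 0.48 (edgeR adjusted p = 0.0974), and its libraries overlapped. Prkaa2, a catalytic subunit of AMPK, had 0.36 (edgeR adjusted p = 0.0539) and Pik3cd, a catalytic subunit of PI3K, had 0.38 (edgeR adjusted p = 0.0947). Prkaa2 and Pik3cd were also named after their values were seen. With the length trend of each library as an offset, the edgeR log2 fold changes were 0.41 for Pik3r1, 0.27 for Prkaa2 and 0.34 for Pik3cd.

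Of the 7 mTORC2 substrate kinases tested, 0 were called and 1 had an unadjusted p below 0.05 (18.0% of all genes). Sgk2 was not tested, with 1 count over all libraries. Of the 7 further partners of the mTOR complexes, 0 were called and 0 had an unadjusted p below 0.05. In that list 1 was apart and higher (12.3% of all genes), Telo2 at 0.12, which was named after its values were seen. Tti1, which with Telo2 assembles mTOR-family kinases, had the largest fold change at 0.24 (edgeR adjusted p = 0.505), and 0.13 to 0.41 with 1 library left out.

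**Figure D5:**
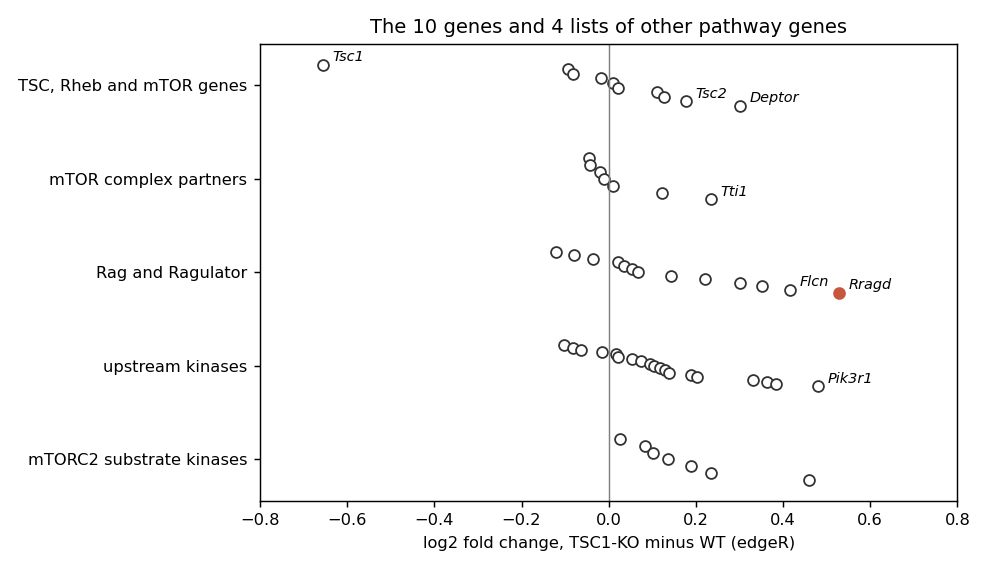
edgeR log2 fold change (TSC1-KO minus WT) of each tested gene among the 10 and in the 4 lists of other pathway genes, 1 point per gene. Rragd at 0.53 is the gene called higher, most points of the other lists lie above 0, and Tsc1 at −0.66 lies lowest.

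The genes whose pattern over the 6 libraries lay nearest to that of Tsc1, by the mean absolute difference of log2 CPM after centring, were Gbp6 (0.075), Gpr34 (0.098), Slc35g2 (0.098), Oprm1 (0.102) and Ptpn18 (0.104). None of the 5 was called by edgeR (adjusted p = 0.251 to 0.396). Their levels were low, with 0.73 to 7.74 TPM in a library.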

How the data were processed

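mRNA was sequenced from telencephalon of 3 WT and 3 TSC1-KO mice, grouped by the genotype labels with replicate numbers from the titles. The authors trimmed the reads after FastQC, mapped them with MapSplice2 to mm10 and counted them over RefSeq genes with RSEM 1.2.12. The deposited expected counts are RSEM's estimates without normalization, and the deposited TPM and FPKM are scaled for effective length and depth by RSEM. Lengths were also deposited.

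Here, expected counts were rounded and tested with edgeR 4.0.16 (R 4.3.3, TMM, filterByExpr, quasi-likelihood, Benjamini-Hochberg over 13969 genes). Genes were called at an adjusted p below 0.05, and apart means that no library of one genotype reached into the range of the other. Errors are SD over 3 mice or SE of the fit. DESeq2 1.42.0 and limma 3.58.1 on log2(TPM + 1) were alternatives, with other normalizations, filters, offsets, a replicate block and each library left out. Single values were compared by two-sided exact permutation tests. Total counts of 14119365 to 17772865 per library bound the precision of low genes such as Deptor. Exons, positions and overlaps came from a GENCODE annotation of GRCm38, counted from 1. The scripts were tested on simulated data.

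The 10 genes and all lists were chosen with earlier results of these data known. The named genes were all 10, each called gene of a pathway list and the one with the largest fold change in it, at most 3 called genes per marker list, Emx1, and the 5 genes nearest to Tsc1. Some genes of the pathway lists are counted but not reported here by name. Other exceptions are stated where they occur.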

Additional observations from a re-analysis of the deposited data

How the results depend on the processing

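Tsc1 kept its direction in all 17 alternatives, with log2 fold changes from −0.79 to −0.40 and adjusted p from 0.00319 to 0.321. It passed the threshold with DESeq2 (−0.65), with a replicate block (−0.63) and with the offsets for length (−0.73) and for length and GC (−0.73), and in these 4 fits the number of the 10 genes called was 1. With 1 library left out, the range was −0.79 to −0.40 for Tsc1 and 0 to 0 for the number called.

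Genes called over all numbered 212, and 636 with DESeq2, 346 without a filter, 551 with the replicate block and 29 to 799 with 1 library left out. Other pathway genes called numbered 9 with DESeq2, 2 with limma, 2 without a filter, 7 with the block and 0 to 7 with 1 library left out, against 1. The block rests on replicate numbers alone. Correlations between the genotypes were 0.267, −0.133 and 0.318 for same-numbered libraries and ran from −0.394 to 0.211 for the others. These ranges overlap and do not settle whether the numbers pair the mice, and the main fit left the numbers out. The choice matters for Tsc1, with an SE of 0.0981 and an edgeR adjusted p of 0.0217 under the block.

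Signs turned for values that passed no threshold. With upper quartile normalization Rheb was −0.019 and Mlst8 −0.0096. With limma, Rictor was 0.0048 and 0.0049 (offsets 1 and 0.1). With 1 library left out, the ranges were −0.048 to 0.080 for Rheb, −0.096 to 0.060 for Rictor, −0.015 to 0.077 for Mlst8, −0.055 to 0.54 for Deptor and −0.13 to 0.25 for the Deptor to Mtor ratio. For the weighted length they were −1.95 to 1.54 bases for Tbc1d7, −0.873 to 0.267 for Mlst8 and −64.0 to 163.4 for Deptor. The cause was not tested.

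With 3 mice per group, differences of about 10% in most of the 10 genes lay within the intervals, and Deptor is limited by its counts.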
